A study of Mus musculus with 12 samples.

Results

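The 26S proteasome is the protease of the cytosol and nucleus that degrades proteins tagged with ubiquitin. The mRNAs of its subunits, activators and assembly chaperones were followed in 12 polyadenylated RNA libraries from a mouse macrophage line, RAW264.7. Members were the protein-coding genes with a symbol that starts with Psma, Psmb, Psmc, Psmd, Psme, Psmf or Psmg and a digit, and with an estimated count of at least 10 in at least 3 libraries. Of 50 genes with such a symbol 49 passed, among 13880 genes tested. Psma8, a core subunit of the testis, reached that count in 0 libraries and was not analysed. The passing genes held between 0.459% and 0.651% of all transcript molecules of a library by TPM (a share of transcript molecules, scaled to the same sum in each library).

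All cells had received, for 48 h, extracellular vesicles (EVs) at 3 µg of protein per ml. The EVs came from cultures of MS-1, a mouse endothelial line, and had been electroporated with a synthetic miRNA mimic, so that vesicle treatment and electroporation were shared by all 4 groups. The control group received a control mimic, named in the study's methods as the worm miRNA cel-miR-67 (ctrl-EVs), and the others a mimic of miR-142-5p, that of miR-183-5p or that of miR-222-3p. Each group had 3 libraries numbered 1 to 3 in the titles, and the sources used here do not say what a number stands for or whether libraries came from separate cultures. P-values therefore measure the spread between these libraries, which may be technical.

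The proteasome is built from a barrel and from caps that control entry into it. The 20S core has outer alpha rings and inner beta rings, and its cutting sites lie on the beta subunits Psmb6 (caspase-like), Psmb7 (trypsin-like) and Psmb5 (chymotrypsin-like). In immune cells and under interferon, Psmb9, Psmb10 and Psmb8 can take the places of these subunits and form the immunoproteasome, and Psme1 with Psme2 form the 11S activator cap (PA28). Macrophages use these forms in making peptides for MHC class I molecules. The 19S cap has a ring of ATPases (Psmc1 to Psmc6) that unfolds the substrate and non-ATPase subunits (Psmd genes) that bind ubiquitin chains, remove them or hold the cap together.

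By role the 49 genes were 7 alpha ring genes, 4 structural and 3 constitutive catalytic beta genes, 3 inducible catalytic genes (Psmb8, Psmb9, Psmb10), 6 ATPases, 11 non-ATPase cap genes, 3 cap assembly chaperones (Psmd5, Psmd9, Psmd10), the 2 genes of the inducible 11S cap (Psme1, Psme2), 3 other activators or inhibitors (Psme3, Psme4, Psmf1) and 4 core assembly chaperones (Psmg1 to Psmg4). The 3 remaining genes were Psmb11, a thymus subunit, Psme2b, a near copy of Psme2, and Psmc3ip, which is no subunit and encodes a partner of meiotic recombination proteins. The 5 genes Psmb8, Psmb9, Psmb10, Psme1 and Psme2 are called inducible below, and the other 43 without Psme2b constitutive. The second name is a label for the remainder, which also holds Psmb11 and Psmc3ip.

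Estimated counts totalled 16294611 to 22974853 per library. The 4 libraries numbered 2, 1 of each group, were the shallowest at 16294611 to 18927524, and they stood apart in other ways. Mitochondrial genes took 4.88% to 5.41% of their counts against 3.48% to 4.62% in the other 8. The summed TPM of 10 macrophage markers (Csf1r, Adgre1, Cd68, Itgam, Lyz2, Spi1, Ptprc, Fcgr1, Mertk, Cd14) was 860 to 902 in them and 1079 to 1207 elsewhere. All 10 but Mertk were tested, and Mertk lay near 0. The markers did not move as 1 list: Cd14 (28.8 to 49.04 TPM against 103 to 150), Fcgr1, Csf1r and Spi1 were called lower in number 2, and Cd68 (349 to 416 against 321 to 374) and Adgre1 higher. The 10 endothelial markers summed to 18.2 to 20.3 TPM in number 2 against 29.2 to 37.6, and 8 fibroblast markers to 11.6 to 16.2 against 4.92 to 9.76, with Col3a1 at 0 in every library and Kdr and Emcn near 0. These sums rest mostly on single genes, Egfl7 (10.1 to 12.3 TPM in number 2 against 17.4 to 26.2) and Thy1 (11.2 to 15.9 against 4.67 to 8.997), and Flt1 was higher in number 2 while the other fibroblast markers lay under 1 TPM. The 8 lymphocyte markers summed to 0.720 to 2.96 TPM over all libraries, with Ncr1 at 0. For each list the ctrl-EV range overlapped that of the miR-EV libraries, while the first 3 lists separated number 2 from the others. Their part in the results on numbers was not tested, and in bulk RNA fewer cells of a type and less RNA per cell cannot be told apart.

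Per molecule of transcript, the core and cap genes were abundant and the inducible catalytic genes were not. The mean TPM over 12 libraries was highest for Psmd8, a cap subunit, at 317, followed by Psmb3 at 297, Psmb4 at 270, Psma5 at 256 and Psma4 at 250. The median over genes was 231 TPM for structural beta genes, 223 for the alpha ring, 195 for the constitutive catalytic genes, 133 for the ATPases and 83.7 for the non-ATPase cap genes. Assembly chaperones, which leave the finished particle, were lower, with medians of 43.8 TPM for the core and 18.6 for the cap. Tissue-restricted Psmb11 averaged 0.187 TPM.

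Among the catalytic genes, Psmb6 averaged 229 TPM and Psmb7 195, while their inducible counterparts Psmb9 and Psmb10 averaged 20.8 and 35.3. The third pair differed from these, since Psmb8 averaged 99.5 TPM with a range of 84.8 to 108 and Psmb5 averaged 83.4 with a range of 42.1 to 114. These totals count all transcripts of a gene. Transcripts not annotated as coding held on average 36.4% of Psmb8 TPM, 38.8% of Psmb10, 24.0% of Psmb9, 9.85% of Psmb6, 0.148% of Psmb7 and 0% of Psmb5. The order of Psmb8 and Psmb5 is thus that of totals, and their coding transcripts alone were not compared. Psme2 averaged 225 TPM and its partner Psme1 101. Psme3, which forms a nuclear cap of the same family (PA28 gamma), averaged 115, Psme4 (PA200, a single-chain activator) 44.7 and the inhibitor Psmf1 22.6 TPM.

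On GRCm38 (GENCODE vM21), Psmb8 lies at chr17:34197721-34201454 on the plus strand and Psmb9 at chr17:34181987-34187764 on the minus strand, within the MHC region. Psmb10 lies at chr8:105935735-105938444, Psmb5 at chr14:54614119-54618022 and Psmb7 at chr2:38588036-38644087, all on the minus strand, and Psmb6 at chr11:70525367-70527858 on the plus strand. Psme1 (chr14:55578123-55581529, plus) and Psme2 (chr14:55587441-55591113, minus) are neighbours. The counts cover whole genes with all their annotated transcripts.

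Some of these levels rest on reads shared with other genes. Of the 31-base words in Psmb5 transcripts 68.9% also occur in the gene Gm3375, which held 20.3% of the counts of both. The corresponding values were 60.7% and 25.2% for Psma3 and Gm13835, and 76.5% of the words of Psme2b occur in Psme2. The values of Psmb5, Psma3, Psme2 and Psme2b are therefore uncertain. Psmb9 and Tap1 overlap on opposite strands of chromosome 17. Opposite-strand overlaps with other tested genes also occur for Psmb7 (Nek6), Psmc3 (Slc39a13), Psme1 (Emc9), Psmd1 (Htr2b), Psmd13 (Sirt3) and Psmc3ip (Mlx). Psma2, Psmd13 and Psme2b overlap other tested genes on the same strand. Whether the counting used strand is not given in the sources used here.

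The first question of the design is whether vesicles loaded with a miRNA changed these mRNAs relative to ctrl-EVs. A mature miRNA pairs with mRNAs mainly through its seed, bases 2 to 8, and a matching stretch in a 3′ UTR is a candidate target site. The mouse miRNAs that the mimics copy are shown from RefSeq on GRCm38.p6 because their seeds define the sites searched in the proteasome genes. The delivered mimics were synthetic. In the study's supplement that of miR-222-3p lacks the last bases shown here and has the same seed. Capitals mark the seed, and the genes lie at chr11:87756867-87756887 on the plus strand, chr6:30169711-30169732 on the minus strand and chrX:19146901-19146923 on the minus strand in the order given.
mmu-miR-142a-5p: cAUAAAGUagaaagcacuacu
mmu-miR-183-5p: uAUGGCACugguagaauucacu
mmu-miR-222-3p: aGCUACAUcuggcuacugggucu

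Proteasome 3′ UTRs are short, with a median of 198.5 bases in 48 members against 913.5 bases in the 12540 tested genes that have one. The site ACTTTAT for miR-142-5p was found in 5 of 48 members (10.4%) against 13.9% of all, GTGCCAT for miR-183-5p in 2 (4.17%) against 8.90%, and ATGTAGC for miR-222-3p in 3 (6.25%) against 9.41%. UTR length was not taken into account in these shares. The sites below, read from the GENCODE vM21 transcripts of GRCm38, are those in an inducible subunit, an 11S gene or the UTR that holds sites for both of 2 miRNAs (Psmd9). The remaining matches were Psma5, Psmg2 and Psme2b for miR-142-5p, Psmc3ip for miR-183-5p and Psmb4 for miR-222-3p. Capitals mark the site. Psmb9 lies at chr17:34182041-34182069 on the minus strand, Psme2 at chr14:55587441-55587463 on the minus strand, Psmd9 at chr5:123248946-123248974 and chr5:123249079-123249107 on the plus strand, and Psme3 at chr11:101322674-101322702 on the plus strand.
Psmb9, miR-142-5p site: tgtaaaaataaACTTTATtattaaaaaaa
Psme2, miR-142-5p site: aaatgatttatACTTTATgtata
Psmd9, miR-183-5p site: taacctactaaGTGCCATttgtgctgtca
Psmd9, miR-222-3p site: agcagggtctcATGTAGCccagtccagcc
Psme3, miR-222-3p site: ctcttctgataATGTAGCagttggtgcca

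With the matching mimic, the log2 fold change over ctrl-EVs was 0.0094 for Psmb9 (SE 0.25) and -0.10 for Psme2 (SE 0.11) under miR-142-5p-EVs. Psmd9, a cap assembly chaperone, stood at -0.28 (SE 0.28) under miR-183-5p-EVs and at -0.15 (SE 0.28) under miR-222-3p-EVs. Psme3 stood at 0.028 (SE 0.18) under miR-222-3p-EVs. Psmg2, a chaperone of core assembly, stood at -0.28 (SE 0.27) under miR-142-5p-EVs, and with the title number as a block it had the lowest unadjusted p of the 10 matches. None of the 10 matches of a site and its mimic passed the test, with or without that block. The SEs above are without the block and hold the spread between title numbers, and each difference was smaller than 2 SE. With the block the SEs were smaller, as for Psmg2 (-0.27, SE 0.15) under miR-142-5p-EVs and Psmd9 (-0.27, SE 0.16) under miR-183-5p-EVs. Each difference was smaller than 2 SE there too.

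No proteasome gene passed the test in any treatment comparison. The test was DESeq2 with an adjusted p under 0.05 over all 13880 genes, and the changes are log2 fold changes of normalized counts (estimated counts divided by a library size factor and corrected for transcript length). The count of members called was 0 of 49 for miR-142-5p-EVs, where 0.00720% of all genes were called. It was 0 for all miR-EVs together and for each other mimic, where 0% were called. It was also 0 in a test for any difference among the 4 groups, against 0.00720% of all genes. In these 5 tests 0 members had an unadjusted p under 0.05, and edgeR called 0 members too.

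Libraries that share a number resembled each other, so the same comparisons were also made with the number as a block, that is, among libraries of the same number. The block narrowed the errors, and 0 of 49 members were called, against shares of all genes of 0.0576% for miR-142-5p-EVs, of 0.411% under miR-183-5p-EVs, of 0.0360% under miR-222-3p-EVs, 0.627% for all miR-EVs and 0.0865% for any difference. Members with an unadjusted p under 0.05 numbered 1, 6, 3, 5 and 3 in that order (2.04%, 12.2%, 6.12%, 10.2% and 6.12%), beside 5.88%, 10.1%, 6.54%, 10.6% and 5.35% of all genes, and edgeR with the block again called 0.

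The size of change that these libraries leave possible can be read from the intervals. Over the 46 members other than Psme2b, Psmb11 and Psmc3ip, log2 fold changes without the block ran from -0.28 to 0.16 under miR-142-5p-EVs, from -0.39 to 0.18 when miR-183-5p was loaded and from -0.28 to 0.29 when miR-222-3p was loaded. The median half-width of the 95% intervals was 0.43 on the log2 scale without the block and 0.22 with it. With the block, the whole interval lay within 0.5 of 0 on the log2 scale for 45, 44 and 44 of the 46 genes, so larger changes of most subunits lie outside these intervals, and smaller ones do not.

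The medians of inducible and constitutive genes lay close together. Without the block, the median log2 fold change of the 5 inducible genes was 0.0047 under miR-142-5p-EVs, 0.025 when miR-183-5p was loaded and 0.095 when miR-222-3p was loaded, that of the 43 constitutive genes -0.061, -0.070 and -0.0020, and that of all genes 0.01 in each. Psmb8 stood at 0.0047 (SE 0.17), 0.025 (SE 0.17) and 0.095 (SE 0.17) in the same order, and Psmb9 at 0.0094 (SE 0.25), -0.011 (SE 0.25) and 0.016 (SE 0.25). The highest value of the inducible genes was that of Psmb10 under miR-222-3p-EVs, at 0.29 (SE 0.42), which did not pass the test. The 3 comparisons share the ctrl-EV libraries.

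**Figure D1:**
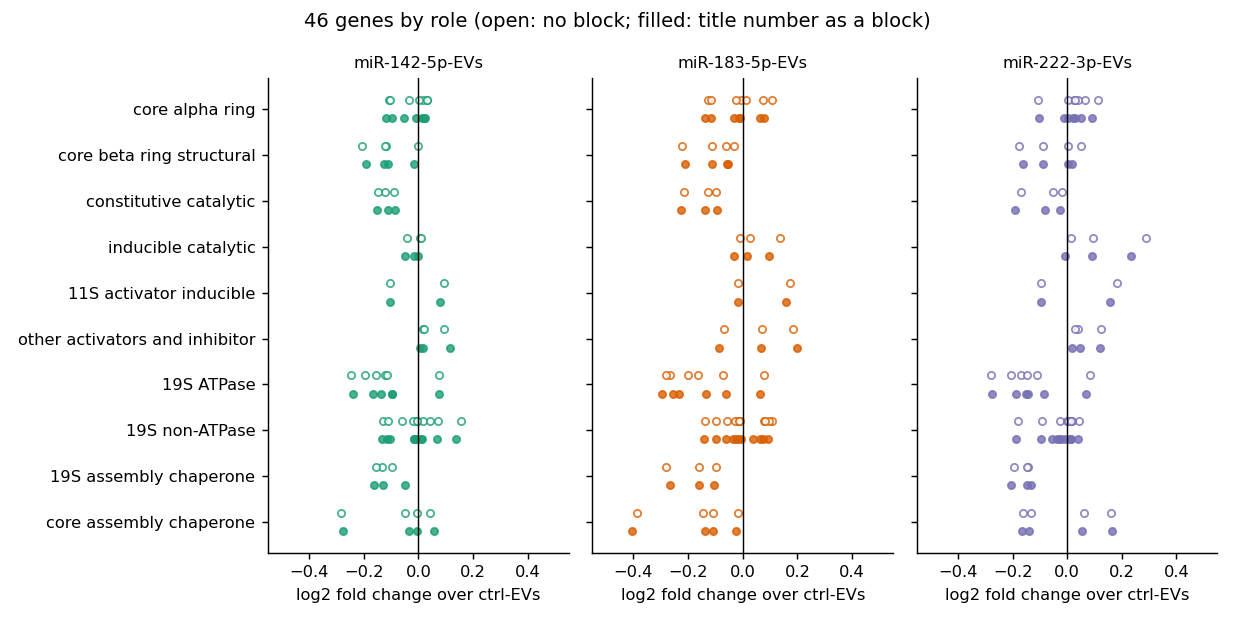
Log2 fold change over ctrl-EVs of 46 proteasome genes by role (rows) for each miRNA mimic (panels), estimated without (open) and with (filled) the title number as a block. Points lie within about -0.41 and 0.29 in every role, and none passed the test.

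The gene nearest to a call was Psmc2, an ATPase of the cap that unfolds substrates. Its normalized counts with ctrl-EVs were 3886, 2273 and 4704 in libraries 1, 2 and 3. The miR-142-5p-EV libraries held 2745, 2199 and 4208, those of miR-183-5p-EVs 2923, 1859 and 4154, and those of miR-222-3p-EVs 2785, 2082 and 4091. All 9 miR-EV libraries lay below their same-number control, while the groups overlapped because library 2 was low in each. For all miR-EVs the log2 fold change was -0.27 (SE 0.32) without the block and -0.27 (SE 0.083) with it, with a DESeq2 adjusted p of 0.0875 with the block. A correction for base composition (GC content) together with the block gave -0.28 and an adjusted p of 0.0429, which is a call, and in that setting 0.908% of all genes were called. Without the 4 libraries numbered 2 Psmc2 stood at -0.32 with the block (DESeq2 adjusted p = 0.0979). Without the block the value depended on single controls, at -0.036 without ctrl-EVs library 3 and -0.52 without ctrl-EVs library 2.

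Psmg2, which holds a miR-142-5p site, was also lower than its same-number ctrl-EV library in 9 of 9 cases, and its log2 fold change of -0.39 (SE 0.27) under miR-183-5p-EVs had the lowest unadjusted p of the members there. The lowest unadjusted p belonged to Psmb2, a structural core subunit, for miR-142-5p-EVs (-0.21, SE 0.19) and for all miR-EVs (-0.20, SE 0.15). It belonged to Psmd10, the chaperone also known as gankyrin, for miR-222-3p-EVs (-0.20, SE 0.17), and to Psmg4, a core chaperone, for any difference. These genes were picked as the lowest of 49, and none was close to a call by the DESeq2 adjusted p.

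Genes that work with the proteasome were not called either. None of 19 tested partners (such as the chaperone Pomp and the transcription factor Nfe2l1, which drives proteasome genes), 8 genes of ubiquitin supply and p97, 12 genes of MHC class I presentation and 13 genes of interferon signalling was called in a treatment comparison, with or without the block. For all miR-EVs the log2 fold change was 0.049 (SE 0.12) for Pomp and 0.026 (SE 0.13) for Nfe2l1. It was 0.070 (SE 0.18) for Tap1 and -0.078 (SE 0.28) for Tap2, which form the peptide transporter, 0.051 (SE 0.28) for B2m and -0.14 (SE 0.20) for Nlrc5, the activator of MHC class I genes. The interferon factor Irf1 stood at -0.017 (SE 0.11).

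The second comparison set the title numbers against each other in a model that also held the treatment. Here the proteasome genes differed widely, as did the rest of the transcriptome. In number 2 against numbers 1 and 3, 32 of 49 members were called (65.3%), close to the 64.3% of all genes, so the number of calls says nothing about these genes. The direction was less even, with 29 members lower (59.2%) and 3 higher (6.12%), against 32.2% lower and 32.2% higher among all genes. Without the length offset 37 members were called, 8 of them higher, and the inducible minus constitutive median was 0.11 in place of 0.27 on the log2 scale. The share of all genes called without the offset is not given here, so these counts cannot be set against it. With the offset, the median log2 fold change was -0.24 over members and 0.0069 over all genes. All 4 number 2 libraries lay below all 8 others for 20 members (40.8%; 21.1% of all genes) and above them for 3 (6.12%; 20.3% of all genes).

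The constitutive catalytic subunits were all lower in number 2. Psmb5, the chymotrypsin-like subunit, had normalized counts of 476, 455, 401 and 411 in the number 2 libraries of the control group and then of the miR-142-5p, the miR-183-5p and the miR-222-3p group. In the same order it had 793, 870, 786 and 933 in number 1 and 901, 632, 684 and 751 in number 3. The ranges did not overlap, and Psmb5 was 1.82-fold lower (log2 fold change -0.86, SE 0.10, DESeq2 adjusted p = 1.56e-15). Merged with the sharing gene Gm3375, Psmb5 was still called, with an adjusted p of 3.76e-17.

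Psmb6, the caspase-like subunit, had 1424, 1463, 1290 and 1149 in number 2, 2402, 2425, 2520 and 2460 in number 1, and 2525, 1943, 2008 and 2044 in number 3. It was 1.72-fold lower (-0.78, SE 0.085, adjusted p = 6.38e-19 by DESeq2) with no overlap. Psmb7, the trypsin-like subunit, had 2149, 2193, 2215 and 2240 in number 2 against 2598 to 3597 in the other 8 (median 3148), and was 1.37-fold lower (-0.45, SE 0.074, adjusted p = 3.74e-09 by DESeq2). The fall was thus shared by the 3 constitutive cutting sites and smallest in Psmb7.

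Of the 3 inducible catalytic subunits, 1 fell. Psmb10, which takes the place of Psmb7, had 271, 283, 263 and 267 in number 2, 411, 507, 591 and 684 in number 1, and 514, 372, 458 and 509 in number 3. It was 1.85-fold lower (-0.88, SE 0.13, adjusted p = 1.36e-10 by DESeq2) with no overlap. Psmb8, which takes the place of Psmb5, had 1269, 1354, 1412 and 1419 in number 2, 1051, 1251, 1236 and 1352 in number 1, and 1366, 1095, 1105 and 1167 in number 3. Its ranges overlapped, since ctrl-EVs library 3 and miR-222-3p-EVs library 1 lay above the lowest number 2 value, and its log2 fold change of 0.18 (SE 0.093) gave an adjusted p of 0.0764 by DESeq2. Without ctrl-EVs library 3, Psmb8 was called higher, at 0.25 with an adjusted p of 0.000818. Psmb9, which takes the place of Psmb6, had 392, 333, 308 and 352 in number 2 within a range of 267 to 404 in the others, and its difference was 0.096 (SE 0.14, adjusted p = 0.548 by DESeq2).

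**Figure D2:**
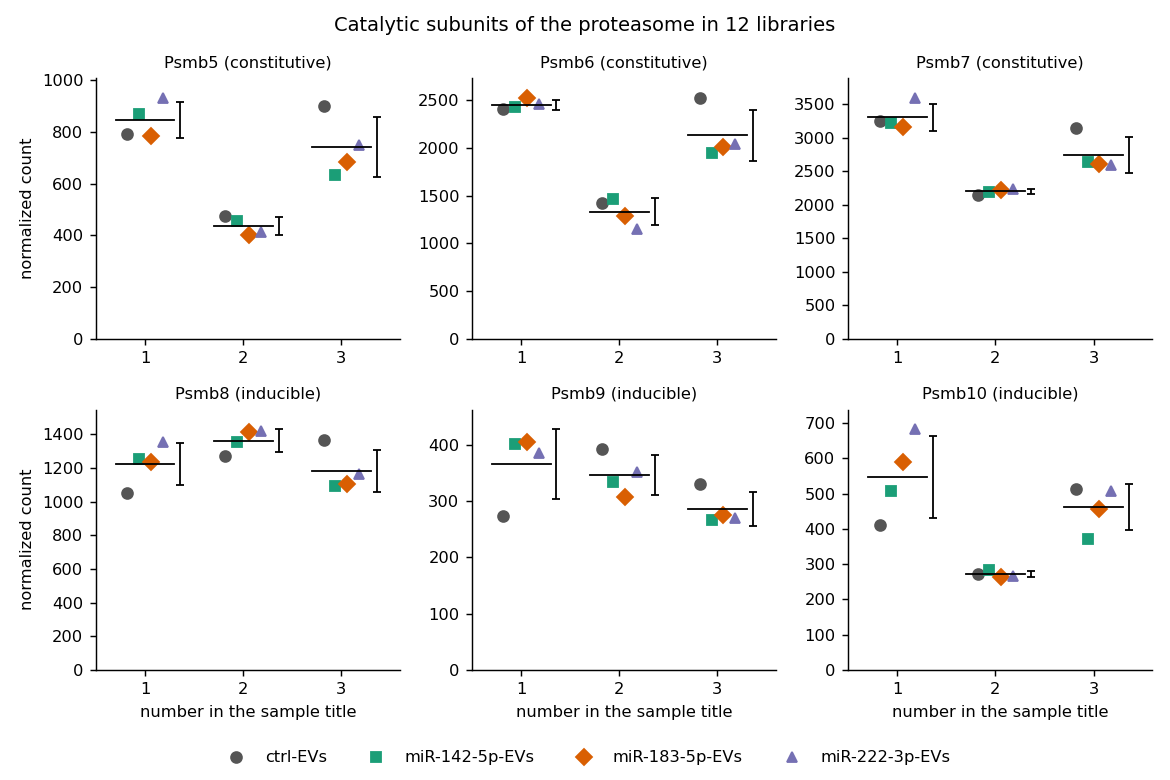
Normalized counts of the 6 catalytic subunit genes in each of 12 libraries (vertical axis, from 0) by the number in the title (horizontal axis), with symbols for the treatment group. The line is the mean of 4 libraries and the bar 1 SD on each side, and number 2 lies below the others for Psmb5, Psmb6, Psmb7 and Psmb10 but not for Psmb8 and Psmb9.

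The balance of 2 of the 3 pairs separated number 2 from the other libraries. The ratio of Psmb8 to Psmb5, in TPM, was 2.06 ± 0.266 (SD, n = 4) in number 2, with 1.74, 1.94, 2.30 and 2.26 in the group order above, and 0.997 ± 0.0813 (SD, n = 8) in the others, where it ran from 0.866 to 1.13. With Gm3375 added to Psmb5 the ranges were 1.38 to 1.85 and 0.686 to 0.912. The ratio of Psmb9 to Psmb6 was 0.143 ± 0.0196 (SD, n = 4) against 0.0776 ± 0.00964 (SD, n = 8), ranging from 0.125 to 0.168 and from 0.0624 to 0.0908. These ratios count all transcripts of a gene. Transcripts not annotated as coding held 35.6% to 49.3% of Psmb9 TPM in number 2 and 8.07% to 27.9% elsewhere. For Psmb6 they held 13.1% to 16.5% and 6.51% to 8.38%. For Psmb8 they held 38.3% to 41.4% in number 2 and 30.5% to 39.1% elsewhere, and for Psmb10 44.8% to 50.5% and 26.1% to 40.1%. Psmb5 had no such transcripts, and in Psmb7 they held at most 0.403%. The part of such transcripts in the ratios was not tested. The ratio of Psmb10 to Psmb7 was lower on average, at 0.142 ± 0.0059 (SD, n = 4) against 0.193 ± 0.0286 (SD, n = 8), and its ranges of 0.137 to 0.149 and 0.146 to 0.227 overlapped. By treatment group the ratios overlapped, with 1.20 ± 0.474 (SD, n = 3) for Psmb8 to Psmb5 in ctrl-EVs and 1.34 ± 0.533, 1.46 ± 0.728 and 1.41 ± 0.738 (SD, n = 3) in the miR-EV groups in that order. Set against the control of the same number, however, the ratio of Psmb8 to Psmb5 was higher in 9 of 9 miR-EV libraries (8 of 9 with Gm3375 added), that of Psmb9 to Psmb6 in 7, that of Psmb10 to Psmb7 in 6 and that of the summed inducible to constitutive catalytic genes in 9. Some of these differences were small. Divided by that of the same-number control, the ratio of Psmb8 to Psmb5 ran from 1.025 to 1.322 and the summed ratio from 1.002 to 1.293. That of Psmb9 to Psmb6 ran from 0.828 to 1.455 and that of Psmb10 to Psmb7 from 0.865 to 1.507. The 3 controls are shared by these comparisons, and the ratios were not tested.

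**Figure D3:**
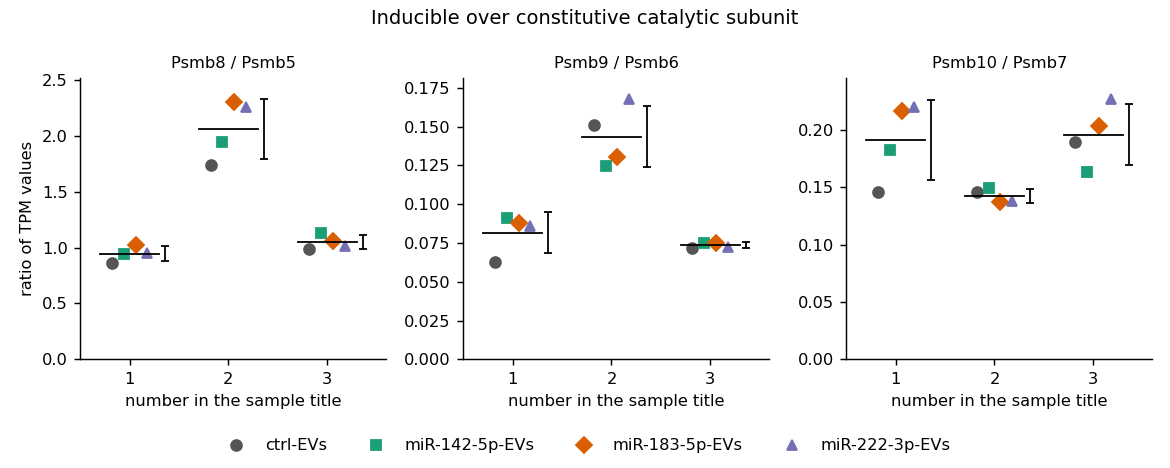
Ratio of the TPM of each inducible catalytic subunit to that of the constitutive subunit it replaces (vertical axis, from 0) in 12 libraries by title number, with the mean of 4 libraries as a line and 1 SD on each side as a bar. In number 2 the ratio of Psmb8 to Psmb5 was 1.74 to 2.30 against 0.866 to 1.13 elsewhere, and that of Psmb10 to Psmb7 was not higher. The TPM of a gene counts all its transcripts, also those not annotated as coding.

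Promoter letters were searched for 5 motifs of factors known to act on proteasome or interferon genes. The RefSeq promoter table (GRCm38.p6, 250 bases before to 50 after a start) held 45 promoters of 42 members among 32851 promoters. Searched on both strands, the antioxidant response element TGACNNNGC, bound by Nfe2l1 and Nfe2l2, was in 13.3% of member promoters and 12.4% of all, and the CCAAT box in 33.3% and 37.4%. The ETS core CCGGAAG was in 35.6% and 8.86%. The core of the interferon-stimulated response element (ISRE), GAAA and GAAA with any 2 bases between, was in 11.1% and 3.44%, and the gamma-activated site TTCCNGGAA in 0% and 1.15%. Among the inducible genes in the table the ISRE core was in Psme1 alone. A match is a description of letters, not a binding site.

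The antioxidant element was in Psmb5, Psmb6, Psmd9 and Psmd12, which were lower in number 2, in Psmc6, which was not called, and in Psme4, which was higher. Psmb5 and Psmb6 are shown as constitutive catalytic genes that hold it, and Psmb9 and Psme1 as inducible genes with a CCAAT box on the other strand and with the ISRE core. Capitals mark these motifs. The stretches are chr14:54617946-54618245 on the minus strand, chr11:70525107-70525406 on the plus strand, chr17:34187281-34187580 on the minus strand and chr14:55578244-55578543 on the plus strand in the order given.
Psmb5: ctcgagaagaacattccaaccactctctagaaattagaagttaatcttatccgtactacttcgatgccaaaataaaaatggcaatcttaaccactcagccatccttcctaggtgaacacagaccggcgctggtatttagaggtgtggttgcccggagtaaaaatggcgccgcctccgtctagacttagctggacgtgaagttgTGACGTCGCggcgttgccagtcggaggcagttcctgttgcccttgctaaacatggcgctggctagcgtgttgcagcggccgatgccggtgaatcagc
Psmb6: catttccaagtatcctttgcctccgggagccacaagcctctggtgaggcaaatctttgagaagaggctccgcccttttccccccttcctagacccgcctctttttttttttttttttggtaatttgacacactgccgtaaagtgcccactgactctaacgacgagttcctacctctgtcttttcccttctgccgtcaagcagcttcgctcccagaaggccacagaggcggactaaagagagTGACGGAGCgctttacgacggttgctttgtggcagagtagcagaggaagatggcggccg
Psmb9: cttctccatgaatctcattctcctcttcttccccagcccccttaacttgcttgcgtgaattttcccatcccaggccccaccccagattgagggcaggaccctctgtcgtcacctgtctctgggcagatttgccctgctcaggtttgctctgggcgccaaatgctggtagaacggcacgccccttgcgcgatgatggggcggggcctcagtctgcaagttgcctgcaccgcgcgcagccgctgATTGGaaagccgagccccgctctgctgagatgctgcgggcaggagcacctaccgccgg
Psme1: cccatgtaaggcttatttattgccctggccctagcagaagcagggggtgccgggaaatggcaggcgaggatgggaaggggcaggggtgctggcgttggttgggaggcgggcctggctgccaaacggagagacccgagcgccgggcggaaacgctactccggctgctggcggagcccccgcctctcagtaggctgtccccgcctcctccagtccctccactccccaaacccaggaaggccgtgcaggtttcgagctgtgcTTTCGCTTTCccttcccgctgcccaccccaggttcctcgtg

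The activators and their inhibitor went several ways. Psme2 had 2049, 2081, 2192 and 2122 in number 2 within a range of 1908 to 2431 in the others (0.013, SE 0.075, adjusted p = 0.883 by DESeq2). Its partner Psme1 had 1022, 1156, 1266 and 1103 in number 2, 1150, 1513, 1538 and 1698 in number 1, and 1375, 1120, 1189 and 1222 in number 3, and was called lower by a narrow margin (-0.24, SE 0.10, adjusted p = 0.0323 by DESeq2) although the ranges overlapped. That call was lost in 7 of 18 alternatives, each of which left out 1 library, and the adjusted p without miR-222-3p-EVs library 2 was 0.168. Together the 5 inducible genes counted 2 lower and 0 higher, with a median of 0.013, and the 43 constitutive genes 26 lower and 3 higher, with a median of -0.26. The inducible median is the value of Psme2. In each library, log2 normalized counts relative to the gene mean were also averaged over the inducible and over the constitutive genes. The difference of these averages was 0.056 to 0.080 in number 2, inside the range of -0.239 to 0.145 in the others. By this measure the inducible genes did not set number 2 apart. On the TPM scale, which is a share of all molecules, the summed inducible genes were lower in number 2, at 418 to 422 against 451 to 547. That sum holds Psmb10 and Psme1, which were called lower by normalized counts too. Psme2 alone held 202 to 206 TPM in number 2 and 205 to 257 elsewhere, which overlap.

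Psme4, the single-chain activator, was 1 of the 3 genes that rose, with 4305, 4055, 4522 and 4324 in number 2 against 2750 to 3554 elsewhere (1.35-fold, 0.43, SE 0.072, adjusted p = 9.33e-09 by DESeq2). Psme3 had 2838, 2895, 2766 and 3275 within a range of 2510 to 3623 and a difference of -0.071 (SE 0.081), which was not called. The inhibitor Psmf1, which binds the ends of the core, had 476, 516, 491 and 532 in number 2, 546, 567, 657 and 638 in number 1, and 592, 549, 546 and 589 in number 3, lower by 0.22 on the log2 scale (adjusted p = 0.0273 by DESeq2), a call lost in 8 of 18 alternatives, with an adjusted p of 0.122 without miR-183-5p-EVs library 2. Psme2b, the copy of Psme2, had normalized counts of 36.2, 0, 3.47 and 24.2 in number 2 and 36.8 to 67.9 elsewhere, and was called lower (adjusted p = 0.00632 by DESeq2), but not without miR-183-5p-EVs library 2, where the adjusted p was 0.065.

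In the ATPase ring of the cap 5 of 6 genes were lower and 0 higher, with a median of -0.75 on the log2 scale. Psmc3 had 1234, 1302, 1244 and 1292 in number 2 and 2374 to 2880 in the others (median 2709.5), a 2.10-fold difference (-1.07, SE 0.070, adjusted p = 1.30e-50 by DESeq2) with no overlap. Psmc4 (1.89-fold lower), Psmc2 (1.72-fold), Psmc5 (1.65-fold) and Psmc1 (1.52-fold) were also lower without overlap. Psmc6, the remaining member of the ring, had 3180, 3115, 3809 and 3483 in number 2 and 2617 to 3588 in the others, which overlap (0.12, SE 0.089, adjusted p = 0.249 by DESeq2). Summed TPM of the ring was 501 to 552 in number 2 and 835 to 1022 elsewhere.

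The 11 non-ATPase genes of the cap went both ways, with 5 lower and 2 higher. Psmd8, the most abundant member, had 5860, 6603, 7913 and 7318 in number 2, 4587, 4224, 4518 and 4305 in number 1, and 5120, 4099, 4228 and 3975 in number 3. It was 1.58-fold higher (0.66, SE 0.091, adjusted p = 2.79e-12 by DESeq2) with no overlap. Psmd3 had 2075, 2129, 2137 and 2103 in number 2 and 1608 to 2042 in the others and was 1.18-fold higher (adjusted p = 0.00993 by DESeq2), a call lost without miR-183-5p-EVs library 2 (adjusted p = 0.0611). Psmd6 (1.42-fold), Psmd12 (1.33-fold), Psmd13 (1.19-fold), Psmd4, a ubiquitin receptor (1.17-fold), and Psmd2, a scaffold of the base (1.12-fold), were lower. The Psmd13 call was lost without ctrl-EVs library 2 (DESeq2 adjusted p = 0.0813) and without miR-222-3p-EVs library 2 (DESeq2 adjusted p = 0.0502). Psmd14, the enzyme that removes ubiquitin chains at entry, stood at 0.079 (SE 0.079), and Psmd1, Psmd7 and Psmd11 were not called either.

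In the core, 3 of 7 alpha ring genes and 3 of 4 structural beta genes were lower and 0 higher. Psma4 fell by 0.49 on the log2 scale, Psma1 by 0.26 and Psma6 by 0.22, while Psma2, Psma3, Psma5 and Psma7 lay between -0.12 and 0.19 and were not called. Psmb4 fell by 0.48, Psmb3 by 0.34 and Psmb2 by 0.26, and Psmb1 stood at 0.10 (SE 0.069). Among the core chaperones Psmg1 fell most, with 302, 355, 292 and 321 in number 2 against 533 to 768 elsewhere (1.97-fold lower, adjusted p = 5.73e-23 by DESeq2). Its partner Psmg2 was 1.39-fold and Psmg3 1.55-fold lower, and Psmg4 was not called (0.13, SE 0.13). Of the cap chaperones Psmd5 (1.29-fold) and Psmd9 (1.40-fold) were lower and Psmd10 was not called. Psmc3ip, no subunit, was 2.18-fold lower, and Psmb11, with 0.82 to 24.7 normalized counts, was not called.

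**Figure D4:**
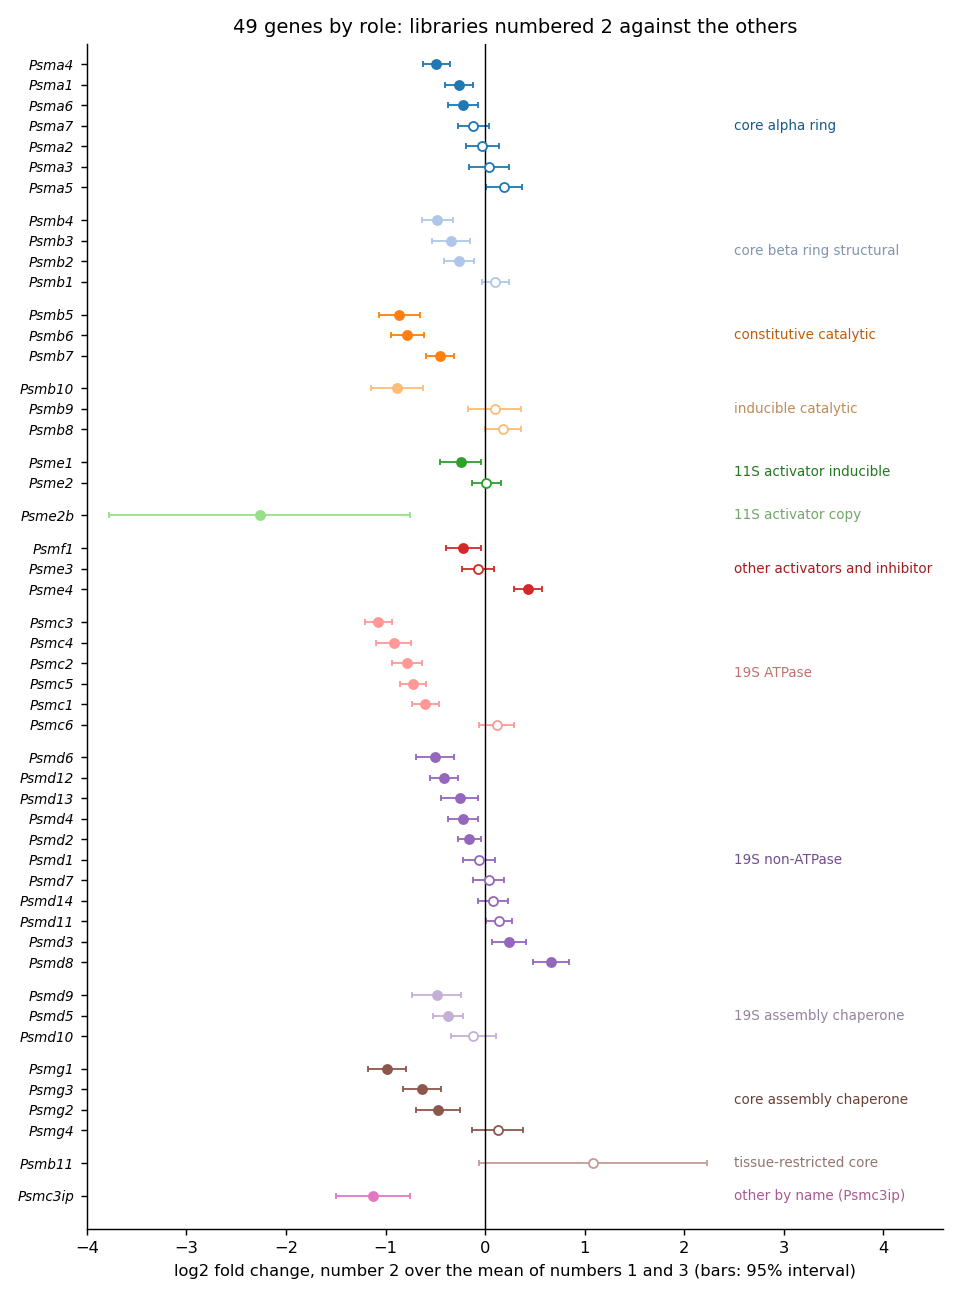
Log2 fold change of each of 49 genes in the 4 libraries numbered 2 over the 8 others (horizontal axis) with its 95% interval, grouped by role, from the model with number and treatment. Filled points passed the test, 29 of them below 0 and 3 above it (Psmd8, Psme4, Psmd3).

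The same libraries also held more proteasome RNA in transcripts that the annotation does not call coding, such as retained introns. These made up 15.0%, 16.6%, 17.3% and 17.3% of the members' TPM in number 2 and 9.01% to 10.7% in the others. Over all tested protein-coding genes the share was 16.4% to 17.8% in number 2 and 13.3% to 14.6% elsewhere, so the shift was seen in the transcriptome and in these genes. Of 42 members with such transcripts, all 4 number 2 libraries lay above all others in 23 (54.8%) and below in 0, against 25.1% and 1.32% of 10047 genes. Gene abundance was not taken into account in these shares, and the measure was chosen after the data were seen.

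The shift reached genes that rose as well as genes that fell. In Psmd8, which rose, the share was 19.9% to 25.0% in number 2 and 4.29% to 7.83% in the others. In Psmc4, which fell, it was 18.8% to 38.5% against 5.63% to 9.55%, and in Psmd6, which fell, 40.0% to 57.9% against 14.2% to 22.9%. Psmb9, whose total was not called, had 35.6% to 49.3% against 8.07% to 27.9%. Counting coding transcripts alone, the summed TPM of the members was 3795 to 4024 in number 2 and 5502 to 5922 in the others, while with all transcripts it was 4590 to 4732 and 6098 to 6508. Its part in the changes of the totals was not tested.

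**Figure D5:**
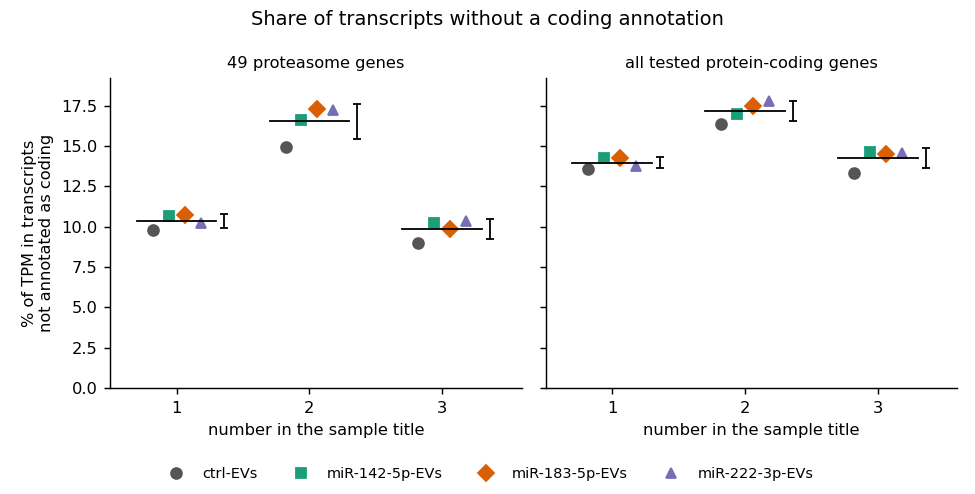
Percentage of TPM in transcripts not annotated as coding (vertical axis, from 0) in 12 libraries by title number, for the 49 proteasome genes and for all tested protein-coding genes, with the mean of 4 libraries as a line and 1 SD on each side as a bar. Number 2 lies above the others in both panels, at 15.0% to 17.3% against 9.01% to 10.7% for the proteasome genes.

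Of 12 MHC class I genes, 9 were called higher in number 2 (75%) and 0 lower, beside 32.2% of all genes in each direction. Calr, a chaperone of class I folding, rose by 1.92 (SE 0.095), H2-D1 by 1.06 (SE 0.078), H2-K1 by 0.89 (SE 0.095), B2m by 0.70 (SE 0.077), Tap2 by 0.60 (SE 0.10) and Nlrc5 by 0.31 (SE 0.083) on the log2 scale, and Tap1 stood at 0.16 (SE 0.093, adjusted p = 0.111 by DESeq2). Of 8 genes of ubiquitin supply and p97, 6 were higher (75%) and 1 lower. Of 19 tested partners 7 were higher (36.8%) and 6 lower (31.6%), close to the shares of all genes: Nfe2l1 fell by 0.20 (SE 0.079), Ngly1, which processes it, by 1.41 (SE 0.11), and Ddi2, which cleaves it, rose by 0.44 (SE 0.076), while Pomp stood at 0.14 (SE 0.085). Of 13 interferon genes 5 were higher (38.5%) and 2 lower (15.4%), with Irf1 at -0.11 (SE 0.086).

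Numbers 1 and 3 differed less. Here 15 of 49 members were called (30.6%; 23.5% of all genes), 11 higher in number 1 (22.4%; 13.0% of all genes) and 4 lower (8.16%; 10.5% of all genes). The alpha ring was higher in number 1 for 5 of 7 genes, and 3 of 6 ATPases were lower. The 3 with the largest rise were Psmd13 (0.44, SE 0.11), Psmb3 (0.42, SE 0.11) and Psmd6 (0.41, SE 0.11), and the 3 with the largest fall Psmc2 (-0.49, SE 0.087), Psme3 (-0.30, SE 0.093) and Psmc1 (-0.26, SE 0.078). None of the 5 inducible genes was called by DESeq2, 2 having an unadjusted p under 0.05, but this rested on single controls. Psmb9 stood at 0.36 (SE 0.16, adjusted p = 0.0759 by DESeq2), and without ctrl-EVs library 1 it was called at 0.55 (adjusted p = 0.000444), Psme1 at 0.37 (adjusted p = 0.00589) and Psmb10 at 0.39 (adjusted p = 0.0228). Without ctrl-EVs library 3, Psmb9 (0.46, adjusted p = 0.0247) and Psme1 (0.39, adjusted p = 0.000525) were called. For the catalytic genes of the constitutive core, Psmb7 was higher (0.27, adjusted p = 0.00889 by DESeq2) and Psmb5 and Psmb6 were not called. The Psmb7 call was lost in 5 of 19 alternatives, each without 1 library, with an adjusted p of 0.112 without miR-222-3p-EVs library 3, while Psmb6 was called in 4 alternatives and Psmb5 in 2.

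These calls differed in how firmly they held when 1 library was left out. Normalized counts of Psmc2 were 2745 to 3886 in number 1 and 4091 to 4704 in number 3, with no overlap. Those of Psmd13 were 1311 to 1644 and 968 to 1258, also with no overlap, and both calls held in all 19 alternatives. Those of Psme3 were 2510 to 3172 and 3179 to 3623, ranges that nearly touched. Its call was lost in 5 of 19 alternatives, each without 1 miR-EV library, with a DESeq2 adjusted p of 0.0897 without miR-222-3p-EVs library 1. In a test for any difference among the 3 numbers 35 of 49 members were called, a share close to the 69.6% of all genes. The number of calls therefore says nothing about these genes. All 7 alpha ring genes and 2 of the 5 inducible genes were among those called. Over both contrasts 10 members were called in each, 3 lower in both (Psmc1, Psmc2, Psmc5) and 7 lower in number 2 and higher in number 1, and 12 were called in neither.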

How the data were processed

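Polyadenylated RNA of 12 libraries of RAW264.7 cells was sequenced by the authors as stranded paired reads and quantified with Salmon on Ensembl transcripts. The deposited values are estimated counts and TPM per transcript. The transcript IDs are mouse although the labels name a human build, and whether strand was used in quantification is not given in the sources used here. IDs were matched to GENCODE vM21 (GRCm38), which held 116710 of 118783 (98.3%), and summed to genes. The unmatched transcripts held 0.570% to 0.642% of the counts.

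Estimated counts were rounded and the 13880 genes that reached 10 counts in 3 or more libraries entered DESeq2 1.42.0 (R 4.3.3), with transcript length as an offset. The study's methods name tximport and DESeq2, and a length offset or count filter is not given in the sources used here. Treatments were compared with group as the term, and title numbers with number and group as terms. P-values were adjusted by Benjamini-Hochberg over all genes, at 0.05. Alternatives were the number as a block, edgeR 4.0.16, no length offset, GC correction, no count filter, merged gene copies and leaving out each library. Scripts were tested on simulated data. A count of 3, taken as the detection floor, is 0.131 to 0.184 CPM, and covers counting error only.

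The title numbers pair the samples. Deviations from group means correlated by 0.411 to 0.801 in the 18 pairs of libraries with the same number (mean 0.612), and by -0.288 on average in 36 other pairs. Such deviations cancel out within a group, so the negative mean of the other pairs follows from the measure and is no separate result.

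Values per library are given for Psmb5 to Psmb10, Psme1 to Psme4 and Psmf1. Other members are named when they had the lowest p in a treatment comparison, the 3 largest rises or falls between numbers, or a treatment call in any fit, and further members are listed with their role. The members and lists were chosen with earlier results of these data known. Pathway genes always named were Pomp, Nfe2l1, Tap1, Tap2, B2m, Nlrc5 and Irf1, and a further gene of that rule is not reported here.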

Additional observations from a re-analysis of the deposited data

Results flagged for a closer look

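In sets of 4 libraries that share a title number, 2 of 63 summed values had 1 library far from the other 3, where chance gives about 1 in 20. In number 3, Psme2b, the copy of Psme2, held 3.90 TPM in the ctrl-EV library against 6.21 to 6.56 in the miR-EV libraries, a gap of 0.87 of the whole range. In the same number, the sum of Psme3, Psme4 and Psmf1 was 175 TPM in the ctrl-EV library and 215 to 222.09 in the others, a gap of 0.859 of the range.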

How the results depend on the processing

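With the replicate number as a block, 0 members were called in each treatment comparison, and the median difference of inducible and constitutive genes for all miR-EVs was 0.076. The block changed no other call of a member. Over all genes, calls numbered 1 without and 8 with the block under miR-142-5p-EVs, 0 and 57 when miR-183-5p was loaded, 0 and 5 when miR-222-3p was loaded, and 0 and 87 for all miR-EVs. The block with GC correction called 1 member for all miR-EVs (Psmc2).

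The inducible minus constitutive median moved from -0.057 to 0.158 for miR-142-5p-EVs and from -0.021 to 0.191 for all miR-EVs when libraries were left out, and to 0.23 without the 4 libraries numbered 2. For number 2 it was 0.27, 0.11 without the length offset and 0.80 against Psmb5, Psmb6 and Psmb7 alone. For number 1 against 3 it was 0.16, 0.067 to 0.240 with a library left out, 0.011 against the 14 constitutive core genes and 0.025 against Psmb5, Psmb6 and Psmb7. Members called between numbers 1 and 3 ranged from 5 (without miR-222-3p-EVs library 1) to 21. They numbered 6 without miR-142-5p-EVs library 1, miR-183-5p-EVs library 3 or miR-222-3p-EVs library 3, 7 without miR-142-5p-EVs library 3 and 9 without miR-183-5p-EVs library 1. In number 2, 28 to 37 members were called, 37 without the length offset, with 8 higher. Shares of all genes called in these alternatives are not given here. Whether the counts moved with the whole transcriptome cannot be read from them. The causes were not tested. Psmb8 was called higher in number 2 with GC correction (0.22, adjusted p = 0.0122 by DESeq2) and without the length offset (0.28, adjusted p = 0.00325 by DESeq2). No named gene reversed a call. Title numbers of unknown meaning and 3 libraries per group limit these comparisons.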
